A study of Mus musculus with 8 samples.

Results

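The 9 genes described here encode platelet-derived growth factor (PDGF) chains, vascular endothelial growth factors (VEGFs) and receptors of both families. They are the PDGF chain genes Pdgfa and Pdgfb, the PDGF receptor genes Pdgfra and Pdgfrb, the VEGF genes Vegfa, Vegfb and Vegfc, and the neuropilin genes Nrp1 and Nrp2. They were chosen by family, with earlier results of these data known. Every probe set that the array's annotation maps to one of these symbols alone was taken. This gave 23 probe sets for 9 of the 18193 genes with a single symbol on the array. The stimulated group held 4 arrays, one per cell line, of cells kept for 24 h with recombinant TGF-β1 and EGF at 3 ng/mL each. The resting group held 4 arrays of the same lines without the factors. EpH4 and NMuMG are mouse mammary gland epithelial lines, and mProx and MCT are mouse renal tubular epithelial lines, mProx from the proximal tubule. The labels call EpH4 resistant to EMT, the epithelial-mesenchymal transition, in which epithelial cells take on a fibroblast-like state. Before this, all cells of both groups had spent 24 h in medium with insulin and transferrin at 5 µg/mL each. No source used here gives the genotype, clonality or number of cultures behind an array.

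PDGF chains form dimers that are secreted and bind the receptor tyrosine kinases PDGFRα and PDGFRβ, which are typical of fibroblasts, pericytes and other mesenchymal cells. Epithelia are known as a source of PDGF-A for the mesenchyme beneath them. VEGF-A drives blood vessel growth through VEGFR2, the product of Kdr, and VEGF-C drives lymphatic vessel growth through VEGFR3, the product of Flt4. Neuropilins are co-receptors without a kinase of their own. They bind both VEGFs and class 3 semaphorins, and plexins join them in the semaphorin receptor.

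All levels below are log2 values of the array signal after scaling of the arrays to a common distribution, and a change is the stimulated minus the resting log2 level of a line. A level under 5.27, the lowest mean level at which a probe set was tested, is called dim. Where a value is dim, the size of a change is uncertain. Levels of different probe sets are not comparable, so levels were compared only between arrays. The lead set of a gene is the brightest one on average, with preference for sets not marked as shared between transcripts or genes. Of the 23 probe sets, 21 reached the tested level, and the other 2 were 1 of 3 sets for Pdgfra and 1 of 2 for Pdgfrb. Tests were run with limma over 27022 probe sets, with the line as a block in comparisons of responses. With 1 array per line and condition, the spread between lines is the only measure of error. The SEs and p-values from limma draw on this spread in the other tested probe sets as well. An SE given here therefore does not follow from the SD of the same probe set.

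The arrays' median signals ran from 41.5 to 59.6 on the deposited scale. Of 12 tested genes known to respond to TGF-β or to ERK signalling, 11 were higher at an unadjusted p under 0.05 in the response over 4 lines. Of all tested probe sets 5.79% were, and 0 of the 12 passed the adjusted threshold. This list was chosen with earlier results of these data known. The kidney cadherin gene Cdh16 was at 10.04 and 9.48 in stimulated mProx and MCT and at 12.23 and 10.80 in the same lines at rest. It was at 3.82 to 5.33 on the 4 mammary arrays. Of 7 kidney tubule markers, 5 were on the array. Pax8 also separated the tissues, at 8.99 to 10.90 on the kidney and 4.55 to 5.87 on the mammary arrays. Lrp2, Cubn and Slc34a1 did not. Resting Lrp2, for example, was at 5.96 and 5.99 in mProx and MCT and at 6.09 and 6.57 in EpH4 and NMuMG. Of 8 epithelial markers, 7, 5, 5 and 6 were above the dim level in resting EpH4, mProx, MCT and NMuMG. The keratin gene Krt18 was at 10.34 and 12.58 in stimulated mProx and MCT and at 9.01 and 11.60 in the same lines at rest. The E-cadherin gene Cdh1 was dim on all 4 kidney arrays, at 3.53 to 4.47, and at 10.06 to 11.84 on the mammary arrays. Mammary markers were uneven, with Krt14 at 11.60 and 10.85 in stimulated and resting EpH4 and dim in the other 3 lines.

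Among the ligands, the PDGF chain genes Pdgfa and Pdgfb and the VEGF gene Vegfa were higher after stimulation in each of the 4 lines. For Vegfa in EpH4 this did not hold without scaling. Vegfc was at least 2-fold higher after stimulation in both mammary lines, but its tissue difference did not pass the test. Vegfb differed little on any array, and Nrp1 varied between lines rather than with stimulation. The receptors Pdgfra and Pdgfrb were near or under the dim level in several lines. In limma's test of the response over the 4 lines, 0 of 27022 probe sets passed an adjusted p of 0.05, which is 0% of those tested, and so 0 of the 21 member sets passed. At an unadjusted p under 0.05, 9 of the 21 member sets were higher, against 5.79% of all tested sets, and 0 were lower, against 5.2%. These 9 came from Pdgfa, Pdgfb, Vegfa, Vegfc and Nrp2 only, and sets of the same gene are repeated measures of it. The lead sets of Vegfc and Nrp2 were not among them (limma unadjusted p = 0.165 and 0.0536). The median mean change was 0.54 over the member sets and 0.01 over all tested sets. Because the genes were chosen with earlier results of these data known, these counts and medians describe them and do not test the family. In each of the 4 lines higher were 7 of 21 member sets, against 10.1% of all tested sets. These were both sets of Pdgfa, Pdgfb and Vegfa, the lead Vegfa set turning in EpH4 without scaling, and 1 of 3 for Vegfc.

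**Figure D1:**
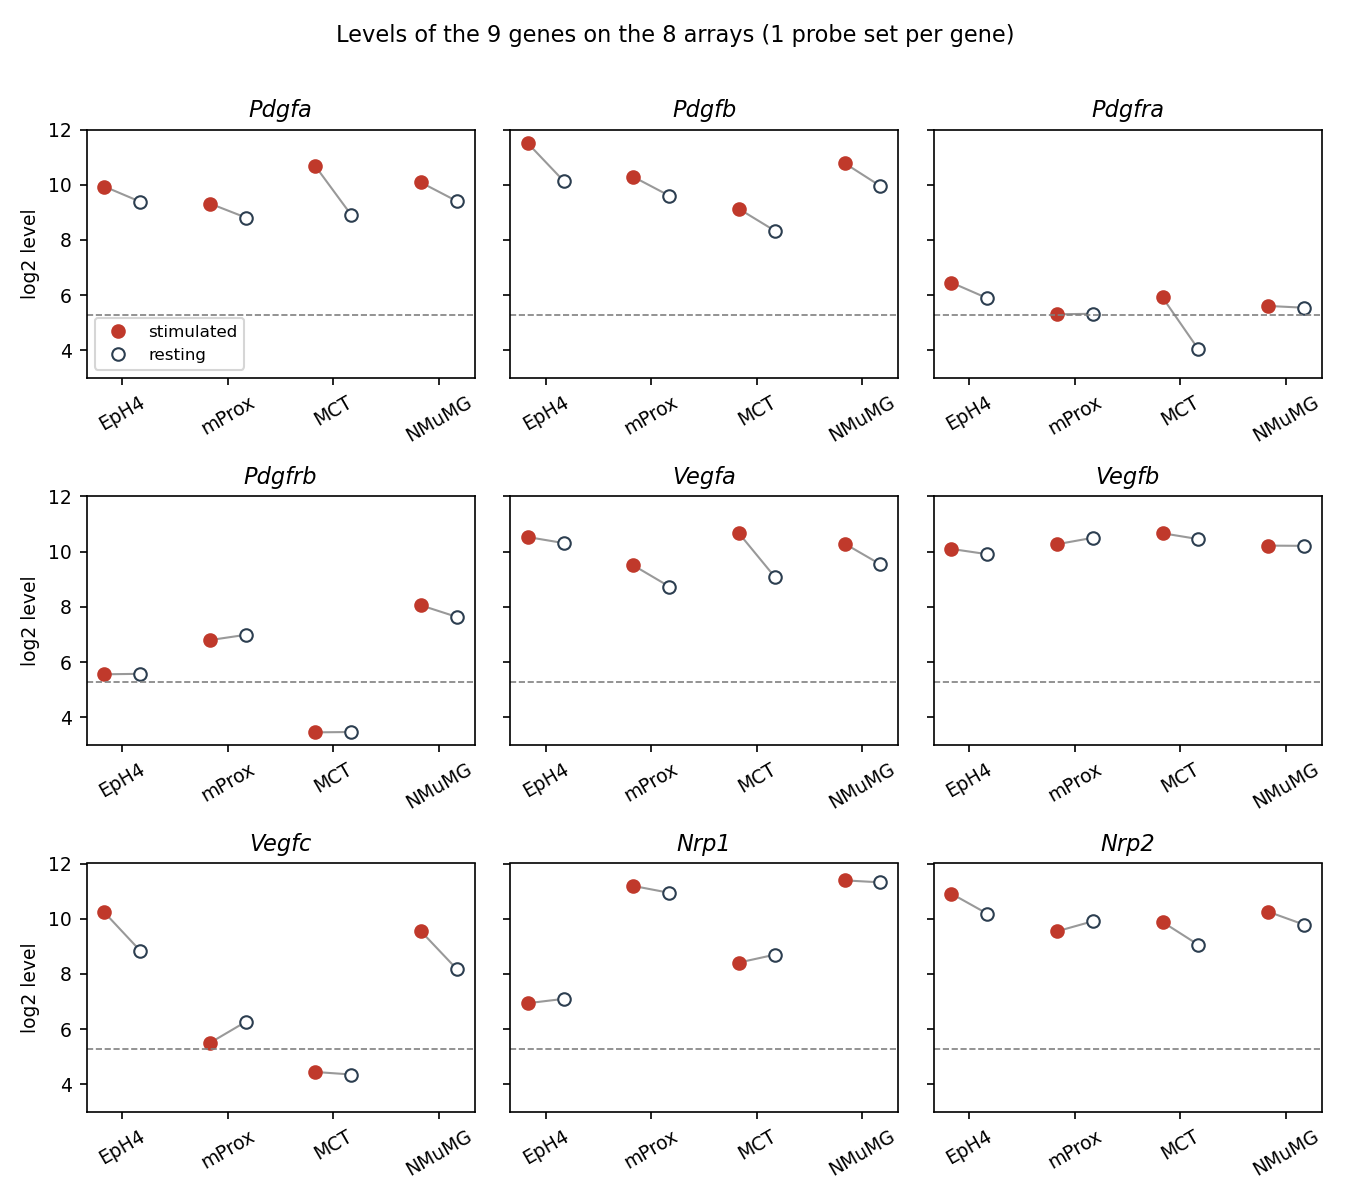
Log2 level of the lead probe set of each gene (y axis) in each line (x axis), with stimulated cells as filled red points left of resting cells as open points, 1 array each, joined by a line. The dashed line marks the level of 5.27 below which a value is dim. Pdgfa, Pdgfb and Vegfa points of stimulated cells lie above those of resting cells in all 4 lines (Vegfa in EpH4 not without scaling), and Nrp1 is spread over lines from 6.94 to 11.39.

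Pdgfb, which encodes the B chain, had the smallest adjusted p of the members. Its levels after stimulation were 11.50 (EpH4), 10.28 (mProx), 9.12 (MCT) and 10.78 (NMuMG), and 10.13, 9.60, 8.33 and 9.95 in the same lines at rest. Every line was higher when stimulated, while the groups overlapped because MCT was low on both arrays. EpH4 had the largest change, 2.58-fold, and the other lines had 1.61-fold (mProx), 1.73-fold (MCT) and 1.78-fold (NMuMG). The mean log2 change was 0.92 ± 0.31 (SD, n = 4 lines), with an SE of 0.13 and a limma adjusted p of 0.105. Its second probe set gave a mean change of 0.77 ± 0.26 (SD, n = 4) and an adjusted p of 0.152 in limma. Both sets were largest in EpH4, the line marked as EMT-resistant. The difference of the EpH4 change from that of the other 3 lines was 0.60 with an SE of 0.23 for the lead set, and did not pass (limma adjusted p = 1.00). On the signals as deposited, without scaling, Pdgfb passed over the 4 lines, with a log2 change of 0.83 and a limma adjusted p of 0.0129. In that setting 417 sets passed, against 0 with scaling. The median change of all tested sets then ran from -0.29 in EpH4 to 0.32 in NMuMG.

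Pdgfa, which encodes the A chain, was at 9.93 (EpH4), 9.32 (mProx), 10.67 (MCT) and 10.08 (NMuMG) after stimulation. At rest it was at 9.38, 8.81, 8.90 and 9.40 in the same order of lines. Stimulated MCT was the highest of the 8 arrays, whereas MCT at rest was among the low ones. MCT cells had 3.41-fold more signal when stimulated, against 1.42-fold to 1.60-fold more in the other 3 lines. The mean change was 0.88 ± 0.60 (SD, n = 4; limma adjusted p = 0.219), and without MCT it was 0.58. The second Pdgfa set had the same order for its largest value, 4.26-fold in MCT, with 1.29-fold to 1.70-fold in the others. Without scaling, the Pdgfa lead set was also among the 417 sets that passed over the 4 lines, at 0.81 with a limma adjusted p of 0.0284.

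Vegfa, the main angiogenic VEGF, was at 10.53 (EpH4), 9.50 (mProx), 10.67 (MCT) and 10.29 (NMuMG) after stimulation. At rest the same lines were at 10.31, 8.74, 9.08 and 9.54. Resting EpH4 was above stimulated mProx and level with stimulated NMuMG, so the groups overlapped. The smallest change was that of EpH4, 1.16-fold, and the largest that of MCT, 2.99-fold, with 1.70-fold in mProx and 1.68-fold in NMuMG. Of the 4 alternative scalings and offsets, only leaving the arrays unscaled turned the EpH4 value negative. On the deposited scale the signal was 1623.9 in stimulated and 1694.2 in resting EpH4, a log2 change of -0.06. The median change of all tested sets in EpH4 was -0.29 on that scale. The mean change was 0.83 ± 0.56 (SD, n = 4; limma adjusted p = 0.215) for the lead set and 0.83 ± 0.48 for the second set (adjusted p = 0.190). Without EpH4, over mProx, MCT and NMuMG, the lead set was higher by 1.03 with an SE of 0.19 (limma adjusted p = 0.145). There 18 of 27022 sets passed, 0.0666% of those tested, and 0 of the 21 member sets. The EpH4 change differed from that of the other 3 lines by -0.82 with an SE of 0.37, which did not pass (limma adjusted p = 1.00). Without scaling, Vegfa passed in both responses, at 0.75 over 4 lines (limma adjusted p = 0.0400) and 1.03 over 3 lines (0.0275). In that setting 417 sets passed over 4 lines and 372 over 3 lines.

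Vegfc, which encodes the lymphangiogenic VEGF-C, separated the tissues. Its lead set was at 10.23 (EpH4), 5.50 (mProx), 4.45 (MCT) and 9.54 (NMuMG) after stimulation, and at 8.84, 6.26, 4.36 and 8.17 in those lines at rest. All 4 mammary arrays were above all 4 kidney arrays, as they were for the other 2 Vegfc sets. Among the 21 member sets these 3 were the ones with kidney arrays all below mammary arrays, against 6.76% of all tested sets. In the mammary lines the 3 sets were 2.45-fold to 2.62-fold higher in stimulated EpH4 and 2.59-fold to 3.14-fold higher in stimulated NMuMG. In MCT all 3 sets were dim on both arrays. In mProx the sets disagreed, with changes of -0.76, 0.16 and -0.49 around low signals of 28.4 to 78.2 on the deposited scale. The kidney response minus the mammary response was -1.72 with an SE of 0.38 for the lead set (limma adjusted p = 0.661). That difference had 0 calls among all sets, 0%, and 3 of the 21 member sets were lower at an unadjusted p under 0.05, all of them of Vegfc, against 2.75%. Without MCT the difference for the lead set was -2.15. This leaves 1 kidney line against 2 mammary lines, and mProx is then assumed to vary like the others. At rest, kidney minus mammary lines was -3.20 for the lead set (limma adjusted p = 0.547) and -4.31 for the largest of the 3 sets (0.427). In that comparison 0% of sets passed.

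Vegfb, which encodes a VEGF known for roles in heart and fat tissue, has 1 probe set. It was at 10.10, 10.27, 10.67 and 10.22 in stimulated EpH4, mProx, MCT and NMuMG, and at 9.91, 10.50, 10.46 and 10.21 in the same lines at rest. The 8 arrays spanned only 0.76, and the mean change was 0.04 ± 0.21 (SD, n = 4; limma adjusted p = 0.912). The sign of so small a change depended on the setting. Without scaling the mean was -0.0085. All 4 kidney arrays were above all 4 mammary arrays, as in 9.43% of all tested sets.

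**Figure D2:**
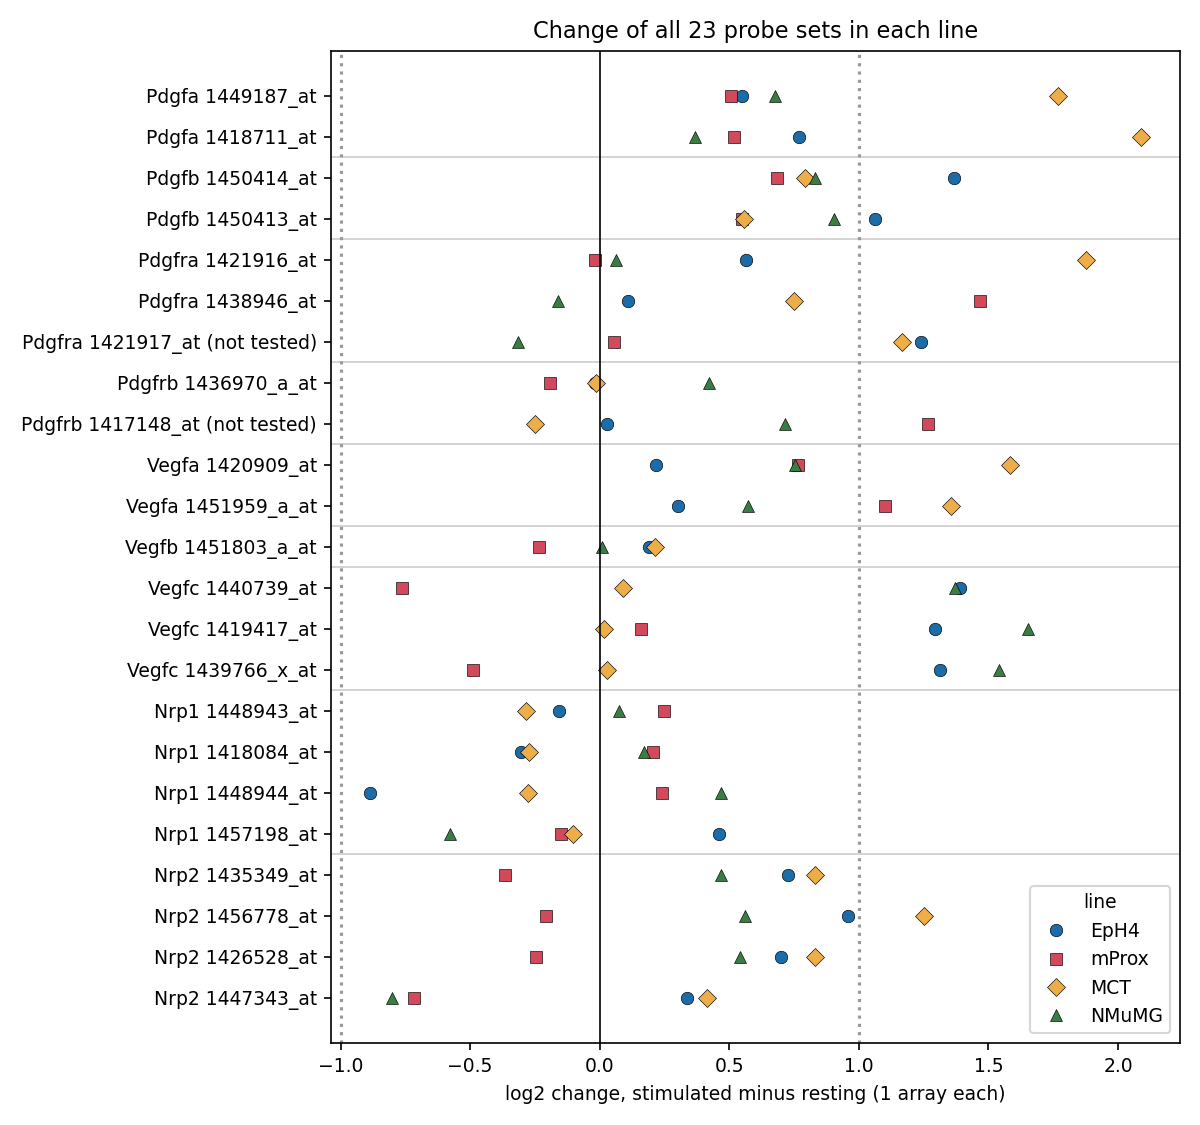
Log2 change, stimulated minus resting, of each of the 23 probe sets (rows, grouped by gene) in each line (coloured symbols, 1 array per condition). Dotted lines mark a 2-fold difference. Both Pdgfa sets stand out in MCT, at 1.77 and 2.09, and the 3 Vegfc sets in EpH4 and NMuMG, from 1.30 to 1.65.

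The promoter windows of 4 members are shown because their responses were unlike: Vegfa was higher in 4 lines (EpH4 not without scaling), Vegfc in 2 by at least 2-fold, Nrp2 in 3, and Vegfb differed little. Each is the 250 bases before the RefSeq start of the gene in GRCm38.p6, 5′ to 3′ on the gene's strand. They lie at chr17:46032378-46032627 on the minus strand for Vegfa, chr8:54077282-54077531 on the plus strand for Vegfc, chr19:6987652-6987901 on the minus strand for Vegfb and chr1:62703067-62703316 on the plus strand for Nrp2. Capitals mark CAGAC, the core of the SMAD box, and GGGCGG, the GC box, on either strand, and where they overlap the capitals run on.
Vegfa: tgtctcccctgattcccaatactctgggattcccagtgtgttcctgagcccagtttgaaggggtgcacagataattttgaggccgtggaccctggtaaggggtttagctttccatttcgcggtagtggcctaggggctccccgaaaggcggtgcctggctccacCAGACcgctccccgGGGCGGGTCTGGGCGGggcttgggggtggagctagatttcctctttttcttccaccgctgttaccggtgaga
Vegfc: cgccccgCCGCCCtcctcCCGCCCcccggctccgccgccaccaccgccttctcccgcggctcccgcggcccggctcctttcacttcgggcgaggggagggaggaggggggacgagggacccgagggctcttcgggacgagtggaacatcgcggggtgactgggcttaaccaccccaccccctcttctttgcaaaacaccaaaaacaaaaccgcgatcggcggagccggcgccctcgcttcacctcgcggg
Vegfb: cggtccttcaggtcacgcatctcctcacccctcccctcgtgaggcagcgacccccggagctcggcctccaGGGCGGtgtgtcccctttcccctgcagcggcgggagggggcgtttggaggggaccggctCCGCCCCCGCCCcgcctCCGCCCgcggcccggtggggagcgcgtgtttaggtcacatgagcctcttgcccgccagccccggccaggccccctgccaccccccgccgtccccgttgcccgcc
Nrp2: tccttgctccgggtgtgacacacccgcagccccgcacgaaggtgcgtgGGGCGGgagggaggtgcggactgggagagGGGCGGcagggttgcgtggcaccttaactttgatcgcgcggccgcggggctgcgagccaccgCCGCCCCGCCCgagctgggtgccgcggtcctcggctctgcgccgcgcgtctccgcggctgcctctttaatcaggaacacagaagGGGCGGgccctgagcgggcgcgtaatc
The Vegfa window holds CAGAC at 2 places and GGGCGG at 2 places, of which one CAGAC, read on the other strand, overlaps a GC box. The Vegfc window holds 0 CAGAC and 2 GC boxes, the Vegfb window 0 and 4, and the Nrp2 window 0 and 5. Of all 32851 promoter windows of this length, 42.2% hold CAGAC and 32.7% hold GGGCGG. The AP-1 motif TGANTCA, found in 6.75% of all windows, and the hypoxia response core ACGTG, found in 16.6%, are in none of these 4 windows. A second RefSeq window of Vegfa, not shown, at chr17:46025164-46025413 on the minus strand, holds ACGTG once. Pdgfa, which was also higher in 4 lines, had 0 CAGAC in each of its windows, which are not shown. The Pdgfra window, also not shown, held CAGAC at 1 place, and that of Nrp1 at 0. These matches describe the letters only. RefSeq windows were matched for 7 of the 9 members, 9 windows in all.

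Of the PDGF receptor genes, Pdgfra had deposited signals of 5.4 to 74.9 in its lead set, against array medians of 41.5 to 59.6. That set was dim on 1 of the 8 arrays, and the Pdgfrb lead set was dim in MCT. The Pdgfra lead set was at 6.45, 5.30, 5.91 and 5.61 in stimulated EpH4, mProx, MCT and NMuMG, and at 5.89, 5.32, 4.04 and 5.54 at rest in the same lines. The low array was resting MCT, which was dim, at a deposited signal of 5.4 against 41.8 in stimulated MCT. Its 3 sets did not share a pattern. The MCT difference of 1.88 in the lead set was 0.75 in the second and 1.17 in the third, while in mProx they gave -0.02, 1.47 and 0.06. Over the 4 lines the lead set had a mean change of 0.62 ± 0.88 (SD, n = 4; limma adjusted p = 0.542). The size in MCT depends on the offset added before log2, with 2.90 at an offset of 1 and 0.84 at an offset of 50.

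Pdgfrb, encoding the receptor of pericytes and other mural cells, was led by a set that may be shared between transcripts. It was at 5.56, 6.80, 3.45 and 8.06 in stimulated EpH4, mProx, MCT and NMuMG, and at 5.58, 6.99, 3.47 and 7.64 at rest. NMuMG was the highest line and MCT was dim on both arrays, with deposited signals of 0.3 when stimulated and 0.4 at rest. The order NMuMG, mProx, EpH4, MCT was the same in both conditions, and the mean change was 0.05 ± 0.26 (SD, n = 4; limma adjusted p = 0.955). The second Pdgfrb set was not tested and was dim on 7 of 8 arrays, the exception being stimulated mProx at 5.62, so the sets do not share the line order. In these bulk samples, fewer cells carrying a transcript and less of it per cell cannot be told apart. Of 10 fibroblast and pericyte markers, which include both receptor genes, 9 were above the dim level on at least 1 stimulated array and 9 on at least 1 resting array, which are not the same genes, as Lum was dim on all stimulated and Thy1 on all resting arrays. Their summed signal after scaling was 333 to 739 in the stimulated group and 240 to 1991 in the resting group. The proteoglycan gene Dcn was high in mProx alone, at 7.53 when stimulated and 10.56 at rest. The collagen gene Col1a1 was higher when stimulated in each line, by 0.75 (EpH4), 1.82 (mProx), 1.13 (MCT) and 1.98 (NMuMG), with a limma adjusted p of 0.142. It was the 1 marker of the 8 tested with an unadjusted p under 0.05 over 4 lines, against 5.79% of all tested sets in that direction. The part of such cells in the receptor values was not tested.

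The neuropilins differed from each other. Nrp1 was at 6.94, 11.19, 8.41 and 11.39 in stimulated EpH4, mProx, MCT and NMuMG and at 7.10, 10.94, 8.70 and 11.32 at rest. The order NMuMG, mProx, MCT, EpH4 was the same in both conditions and in all 4 probe sets. The lead set's change was between -0.28 and 0.25 in each line, with a mean of -0.03 ± 0.24 (SD, n = 4; limma adjusted p = 0.953). Its 4 sets had mean changes of -0.03, -0.05, -0.11 and -0.09. Resting EpH4 minus the mean of the other 3 resting lines was -3.22 with an SE of 1.11 (limma adjusted p = 0.578), a difference that did not pass. In that comparison 3 of 27022 sets passed, 0.0111%, and 0 of the member sets. At an unadjusted p under 0.05, 3 of the 21 member sets were lower, all of Nrp1, against 4.41% of all tested sets.

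Nrp2, the usual partner of VEGF-C and its receptor VEGFR3, was at 10.91, 9.54, 9.88 and 10.25 in stimulated EpH4, mProx, MCT and NMuMG, and at 10.18, 9.91, 9.05 and 9.79 at rest. It was higher when stimulated in EpH4, MCT and NMuMG, by 1.65-fold, 1.78-fold and 1.38-fold, and lower in mProx, with a log2 change of -0.36. The 3 brighter sets shared this pattern, with mProx at -0.36, -0.21 and -0.24. The mean changes of these sets were 0.41, 0.64 and 0.46, with limma adjusted p values of 0.461, 0.343 and 0.399. A dimmer set did not share it, with a mean of -0.19. Without mProx the lead set's mean was 0.67.

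**Figure D3:**
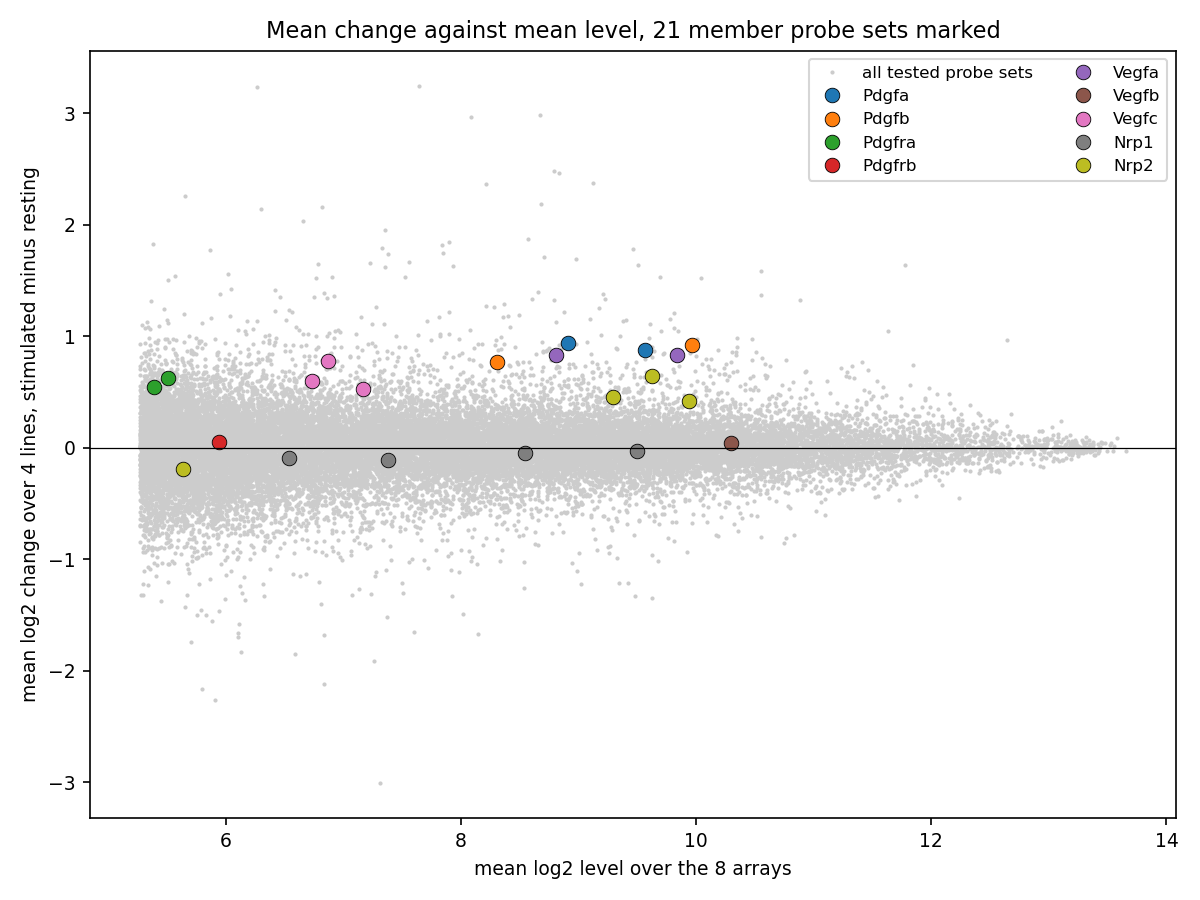
Mean log2 change over the 4 lines (y axis) against mean log2 level over the 8 arrays (x axis) for all 27022 tested probe sets in grey, with the 21 member sets coloured by gene. The sets of Pdgfa, Pdgfb and Vegfa lie between 0.77 and 0.94, against a median of 0.01 for all tested sets, and those of Nrp1 and Vegfb lie near 0.

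Over the 8 arrays the variation of each gene was divided into shares for the line, for stimulation and for the remainder. Stimulation took 55.8% of the sum of squares for Pdgfa, 38.5% for Vegfa and 25.3% for Pdgfb. The line took 99.7% for Nrp1, 99.5% for Pdgfrb and 94.2% for Vegfc. Over all tested sets the median share was 2.78% for stimulation and 84.5% for the line. For Vegfc the stimulation share was 1.45% and the remainder, which holds differences between the lines' changes, 4.39%. These shares are descriptions of 4 lines with 1 array per condition.

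**Figure D4:**
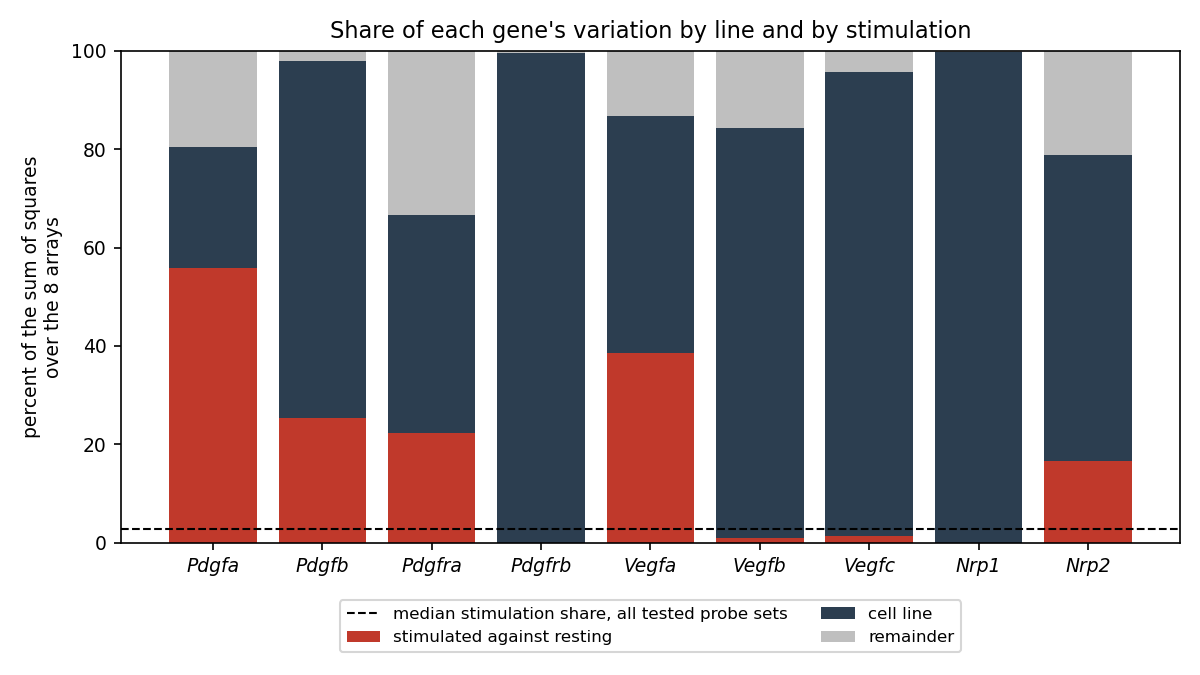
Percent of the sum of squares of the log2 level over the 8 arrays taken by stimulation (red), by the cell line (dark) and by the remainder (grey), for the lead probe set of each gene. The dashed line is the median stimulation share of all tested probe sets, 2.78%. Pdgfa has the largest red part of the 9 genes and Nrp1 is almost wholly dark.

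At least 2-fold higher in EpH4 were 5 of the 21 member sets, against 1.45% of all tested sets, and these were the Pdgfb and Vegfc sets. In mProx 2 were, a Vegfa and a Pdgfra set, against 2.77%. In MCT 6 were, against 2.92%, namely both Pdgfa and both Vegfa sets and 1 each of Pdgfra and Nrp2. In NMuMG 3 were, against 3.07%, the Vegfc sets. No member set was at least 2-fold lower in any line, against 1.58% (EpH4), 2.65% (mProx), 2.7% (MCT) and 3.52% (NMuMG) of all tested sets. The comparisons of single lines have no replicate check.

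The 6 comparisons differed in how many member sets had an unadjusted p under 0.05. Over the 3 lines not called resistant, 6 of 21 were higher, both sets each of Pdgfa, Pdgfb and Vegfa, against 6.12% of all tested sets, and 0 were lower, against 5.3%. For the EpH4 response minus that of the others, 1 Pdgfb set was higher, against 1.51%, and 1 Nrp1 set was lower, against 1.68%, where 3.19% of all sets were past that p in either direction. For kidney minus mammary response, 1 Vegfa set was higher, against 2.75%, beside the 3 lower Vegfc sets, with 5.5% of all sets in either direction. For resting kidney minus mammary lines, 0 were higher, against 3.93%, and the 3 Vegfc sets were lower, against 2.36%, with 6.29% in either direction. For resting EpH4 minus the others, 1 Vegfa set was higher, against 3.77%, beside the 3 lower Nrp1 sets, with 8.19% in either direction. The responses over 4 and over 3 lines had 11% and 11.4% of all sets in either direction, and they share arrays. Higher in mProx, MCT and NMuMG alike were 7 of 21 member sets, against 18.3% of all tested sets, and lower in all 3 was 1 Nrp1 set, against 15.8%. No member set was lower in each of the 4 lines, against 9% of all tested sets. No member set had all 4 stimulated arrays above all 4 resting arrays, against 0.507%, or below them, against 0.3%.

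Genes most like a member were taken by the correlation of log2 level over the 8 arrays among 12696 other genes. The arrays come in pairs from 4 lines, so the correlations rest largely on 4 line levels. Vegfa was most like Pmepa1, a TGF-β target that dampens the pathway (r = 0.98). Pdgfa was most like the immediate early gene Ier2 (r = 0.98), followed by the protease gene Ctsw (0.96). Nrp1 was most like S100a4, a calcium-binding protein gene (r = 0.99), and another PDGF gene, Pdgfd, was among its 3 most like genes (0.99). Vegfc was most like Porcn, which encodes the enzyme that acylates Wnt proteins (r = 0.97). Pdgfb was most like 1600010M07Rik (r = 0.94), Pdgfra like Grpr (0.97), Pdgfrb like Cd1d1 (0.99), Vegfb like Zfp932 (0.97) and Nrp2 like Bdkrb1 (0.97).

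Of the other ligands of the families, 3 of 4 were tested, and 0 passed an adjusted p of 0.05 in either response. Pdgfc, whose product is activated by proteolysis, was at 11.87, 9.97, 10.17 and 11.18 in stimulated EpH4, mProx, MCT and NMuMG, and at 11.53, 9.59, 7.53 and 10.92 at rest. The large difference was in MCT, at 2.64, against 0.26 to 0.39 in the other lines (mean 0.91 ± 1.16, SD, n = 4; limma adjusted p = 0.407). Vegfd, a second ligand of VEGFR3, was lower in the 3 lines not marked as resistant. It was at 6.15 in mProx, 6.17 in MCT and 5.68 in NMuMG when stimulated, and at 8.38, 8.30 and 6.86 at rest. The mean change over these lines was -1.85 (limma adjusted p = 0.0742), which did not pass, and Vegfd was dim in EpH4 on both arrays. Pdgfd had a mean change of 0.26 (adjusted p = 0.642). The placenta growth factor gene Pgf was not tested.

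Of 4 receptor genes, the VEGF receptors Flt1, Kdr and Flt4 and the receptor-like gene Pdgfrl, 3 were tested and 0 passed. Mean changes over 4 lines were 0.39 for Flt1, -0.13 for Kdr and 0.08 for Flt4, the gene of VEGFR3. Flt4 was at 5.43 to 7.22 on the stimulated and 5.80 to 6.75 on the resting arrays. Of 9 endothelial markers, which include Flt1 and Kdr, 4 were dim on all 8 arrays, namely Pecam1, Tek, Tie1 and Vwf. Their summed signal after scaling was 153 to 243 in the stimulated group and 145 to 209 in the resting group. Of 6 leukocyte markers 1, the pan-leukocyte gene Ptprc, was dim on all 8 arrays, while Cd68 and Csf1r were above the dim level on all 8. Csf1r was at 7.63 in stimulated and 10.91 in resting mProx and at 7.02 to 7.64 on the other 6 arrays. The summed signal of the 6 was 338 to 388 in the stimulated group and 314 to 2067 in the resting group. The part of such cells in the values above was not tested.

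Class 3 semaphorins, a family that includes neuropilin ligands, had a median mean change of -0.54 over 5 tested genes of 7. At an unadjusted p under 0.05, 3 of the 5 were lower, against 5.2% of all tested sets, and 0 passed the adjusted threshold. Over mProx, MCT and NMuMG, without EpH4, 0 of the 5 were lower at that p, against 5.3% of all tested sets. Limma's unadjusted p over these lines was 0.0668 for Sema3c, 0.0720 for Sema3e and 0.0872 for Sema3a. Over the 4 lines Sema3c had a mean change of -0.80 ± 0.86 (SD, n = 4; limma adjusted p = 0.347), Sema3e of -0.59 and Sema3a of -0.54. Sema3c and Sema3e were lower in EpH4, MCT and NMuMG but higher in mProx, by 0.36 and 0.42. Of 7 plexin genes, all tested, 1 was higher at an unadjusted p under 0.05, against 5.79% of all tested sets, and 0 lower, against 5.2%. It was Plxnd1, the receptor of Sema3e, with a mean of 0.38 ± 0.25 (SD, n = 4; limma adjusted p = 0.385), and the list's median was -0.01. Over mProx, MCT and NMuMG, 1 plexin gene was higher at that p, against 6.12% of all tested sets, and 1 lower, against 5.3%. Plxnd1 was not past it over these lines.

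**Figure D5:**
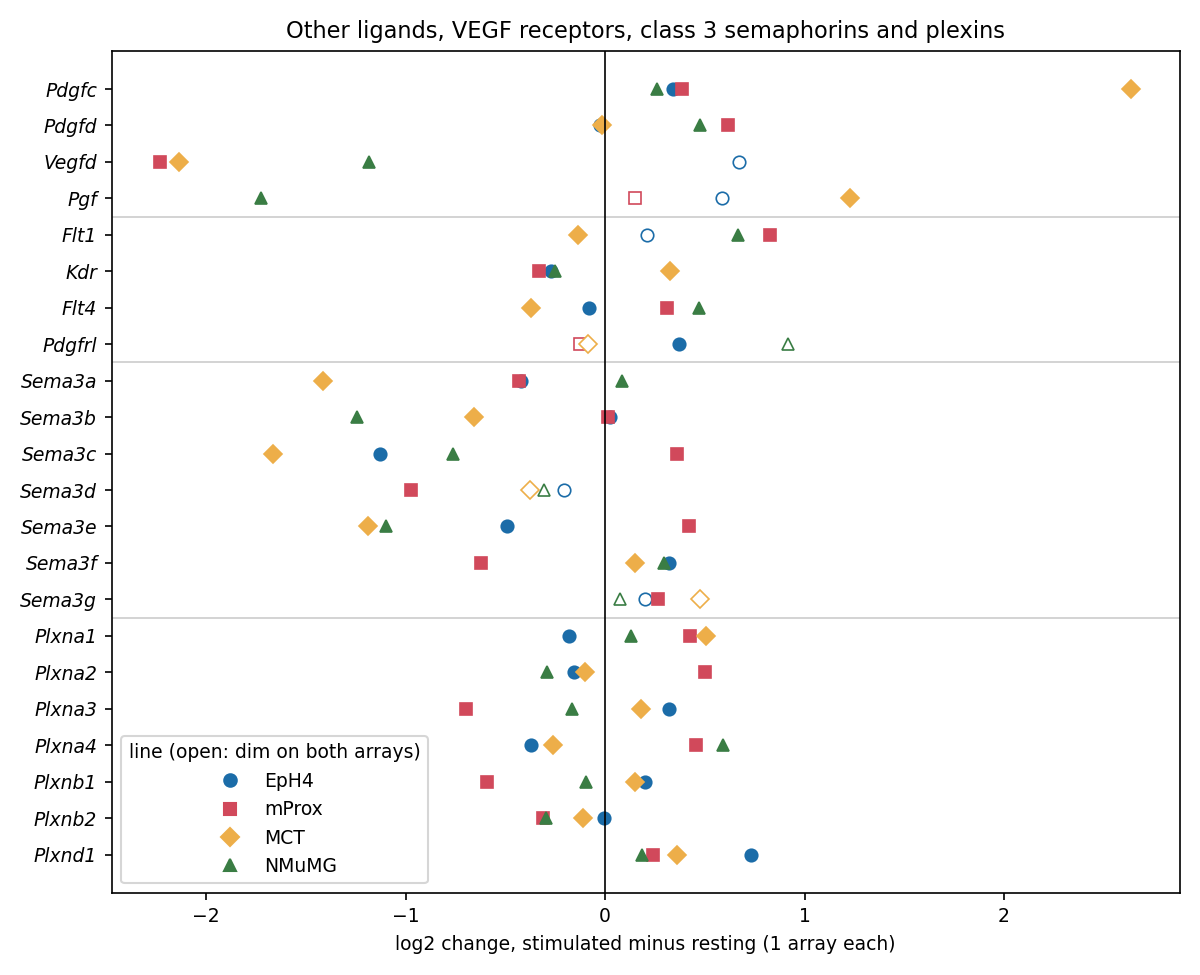
Log2 change, stimulated minus resting, of related ligand, receptor, semaphorin and plexin genes (rows) in each line (coloured symbols, open where both arrays were dim). Pdgfc in MCT lies at 2.64, and Vegfd lies between -2.23 and -1.18 in mProx, MCT and NMuMG.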

How the data were processed

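Per the submitters' processing notes the deposited values came from MAS5, the Affymetrix summary of perfect-match and mismatch probes. The deposited values are linear intensities of 45101 probe sets on 8 arrays. No source used here gives the MAS5 version, the scaling target or scan batches. After removal of 64 control sets, 10.6 (the 25th percentile of positive signals) was added as an offset, log2 was taken and the arrays were quantile-normalized, because their median log2 values differed by 0.43. Scaling removes any overall shift between resting and stimulated cells. Probe sets with a mean level at or above the 40th percentile, 5.27, entered limma 3.58.1, run in R 4.3.3 (eBayes with an intensity trend), with p-values adjusted over all 27022 by Benjamini-Hochberg at 0.05. The tests were tried on simulated data.

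The comparisons were the response in 4 lines and in 3 lines, the difference of EpH4 from the others, kidney minus mammary response, and 2 comparisons of resting lines. The line was the block, from the names in the titles. The 2 arrays of a line deviated together, with correlations across probe sets of 0.887, 0.804, 0.762 and 0.857 in EpH4, mProx, MCT and NMuMG. Nothing says that an array stands for separate cultures. The p-values reflect the spread between lines, which limma moderates with the spread of the other tested probe sets. The number of arrays limits the precision. The members, gene lists and motifs were chosen with earlier results of these data known. The rule for named genes takes all 9 members by each probe set, up to 6 genes of each pathway list by size of mean change, and the 3 genes most like each member. All 9 symbols matched GRCm38.p6 by Entrez identifier. Each listed gene was taken by its brightest set. Alternatives covered scaling, offset, filter, 1 set per gene, trend, block and leaving out each line.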

Additional observations from a re-analysis of the deposited data

Results flagged for a closer look

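Of 27 checks of groups of 4 values (levels in each group, and changes over lines, for 9 lead probe sets), 1 stood apart, and chance alone gives about 1 in 20. The Pdgfa change in MCT, 1.77 on the log2 scale, lay far from the next value, 0.68 in NMuMG. The second Pdgfa set had its largest change in the same line, at 2.09. Pdgfc, another PDGF chain gene, was also highest in MCT, at 2.64.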

How the results depend on the processing

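With the deposited values unscaled, the calls were 417 over 4 lines (4 member sets), 372 over 3 lines (2 member sets), 13 for EpH4 minus the others, 36 for kidney minus mammary response, 11 for resting kidney minus mammary and 35 for resting EpH4 minus the others. The cause was not tested. With scaling, 27022 sets were tested, 21 of them member sets, and sets of the same gene are repeated measures of it. Over 4 lines, trimmed-mean scaling gave 2 calls, an offset of 1 gave 1 and an offset of 50 gave 5. Over 3 lines, offsets of 1 and 50 gave 8 and 4, and no filter or no trend gave 0. For resting EpH4, trimmed-mean scaling and no trend gave 0, and an offset of 50, no filter and 1 set per gene gave 1 each. With no replicate block, so that the pairing by line was ignored, calls over 3 lines were 0 and those over 4 lines were 0, with 218 at an unadjusted p under 0.05. Leaving out 1 line gave 0 to 18 calls over 4 lines (18 without EpH4), 17 to 101 over 3 lines (42 without mProx, 101 without NMuMG), 0 to 74 for kidney minus mammary response (30 without mProx, 74 without MCT) and 0 to 0 for resting EpH4.

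Unscaled, the Pdgfa, Pdgfb and Vegfa changes passed over 4 lines, at 0.81, 0.83 and 0.75, and Pdgfa and Vegfa over 3 lines, at 0.99 and 1.03. Signs turned for small values. Vegfb was -0.0085 over 4 lines, 0.020 over 3 lines, -0.12 for EpH4 minus the others and 0.063 for resting EpH4 unscaled, and 0.013 over 3 lines with trimmed-mean scaling. Nrp1 was -0.18 for kidney minus mammary response unscaled. Pdgfra was 0.078 for EpH4 minus the others at an offset of 50, and Pdgfrb 0.25 for resting EpH4 at an offset of 1. Leaving out 1 line moved values over 4 lines from -0.011 to 0.14 for Vegfb, -0.12 to 0.054 for Nrp1 and -0.074 to 0.13 for Pdgfrb. Over 3 lines they ran from -0.11 to 0.11 for Vegfb, -0.11 to 0.16 for Nrp1, -0.10 to 0.20 for Pdgfrb and -0.34 to 0.73 for Vegfc. For EpH4 minus the others they ran from -0.40 to 0.54 for Pdgfra and -0.22 to 0.085 for Pdgfrb. For kidney minus mammary response they ran from -0.24 to 0.29 for Nrp1, -0.33 to 0.11 for Vegfb, -0.96 to 0.23 for Nrp2, -0.11 to 1.16 for Pdgfa, -0.33 to 1.56 for Pdgfra and -2.15 to -1.29 for Vegfc. For resting kidney minus mammary lines they ran from -1.50 to 2.72 for Nrp1 and -3.14 to 0.38 for Pdgfrb, and for resting EpH4 from -1.74 to 0.35 for Pdgfrb. Signals near background limit Pdgfra, Pdgfrb and the kidney values of Vegfc.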

Other observations

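Among 11 genes of ligand processing, binding and adaptor function, 10 were tested and 0 passed the adjusted threshold. The urokinase gene Plau was higher in each line, by 0.34, 1.26, 0.63 and 1.08 in EpH4, mProx, MCT and NMuMG (limma adjusted p = 0.283 over 4 lines), and was dim at rest in 3 of them. The proprotein convertase gene Furin had a mean change of 0.58 (adjusted p = 0.365), with 1.38 in NMuMG. Another convertase gene, Pcsk6, had a mean change of -0.62 (limma adjusted p = 0.604), with -2.31 in mProx. Adamts1, a metalloprotease gene whose product is known to bind VEGF-A, was lower in each line, with a mean change over 3 lines of -1.69 (limma adjusted p = 0.0726).

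Of 12 genes of the hypoxia axis, which is known to control Vegfa, all were tested and 0 passed. At an unadjusted p under 0.05, 2 were higher, against 5.79% of all tested sets, and 1 lower, against 5.2%. Without EpH4, 3 were higher, against 6.12%, and 1 lower, against 5.3%. The glucose transporter gene Slc2a1 had a mean change of 0.73 ± 0.54 (SD, n = 4; limma adjusted p = 0.245) and Egln1, an oxygen-sensing hydroxylase gene, of 0.40. The ubiquitin ligase gene Vhl had a mean of -0.41 and Hif1a of -0.08, and the list's median was -0.02. Bnip3 had a mean of 0.23, Pdk1 of 0.21 and Arnt of -0.18. Of a list of 5 genes, made up of the growth factor response genes Egr1, Fos, Myc and Ccnd1 and the receptor-like gene Pdgfrl, the first 4 were tested. At an unadjusted p under 0.05, 1 was higher over 4 lines, against 5.79% of all tested sets, and 2 without EpH4, against 6.12%. Over 4 lines it was Myc, with a mean of 0.86 (limma adjusted p = 0.345). Ccnd1 had a mean of 0.77, Fos of 0.18 and Egr1 of -0.58. The Egr1 changes ran from -1.79 in NMuMG to 0.83 in MCT.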
